A study of Mus musculus with 12 samples.

Results

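Skeletal muscle forms when mononucleated myoblasts leave the cell cycle, differentiate and fuse into fibres with many nuclei. The 4 myogenic regulatory factors, *Myf5*, *Myod1*, *Myog* and *Myf6*, are basic helix-loop-helix transcription factors that bind E-boxes together with E proteins. *Myf5* and *Myod1* set the myogenic lineage and mark activated myoblasts, *Myog* drives terminal differentiation, and *Myf6* (MRF4) is the factor best known from mature fibres. Fusion itself needs a pair of muscle membrane proteins, myomaker (*Mymk*) and myomixer (*Mymx*), whose genes are targets of these factors.

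These 6 genes, out of 55450 in the count table, were chosen by name as the myogenic regulatory factors and the fusion genes, and they were selected on a reading of these same data in which *Myog* was lower after 2 weeks (wks). For these 6 genes the comparison of 7 wks with 2 wks is for that reason given as a description with no p-value, while other genes were tested in it. RNA was sequenced from pieces of tibialis anterior (TA) muscle, a hindlimb muscle rich in fast fibres, of wild-type (WT) mice on the 129Pas background, written 129SvPas in the methods of the study. There were 4 libraries at E18.5, a fetal age shortly before birth, 4 of 2-wk-old and 4 of 7-wk-old mice, all of the same genotype. Age is what separates the groups in the labels, while markers of tissue around the muscle differed with it, as given below. The study describes the libraries as 4 mice an age.

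Libraries held 89118984 to 123449246 counted reads in the E18.5 group, 63018968 to 105211269 in the 2-wk group and 71307973 to 97917908 in the 7-wk group. Levels are read counts set to a common library size (CPM) after TMM scaling, which sets libraries on one scale by the genes of middling change. This scaling matters here, because reads were concentrated in the top 20 genes after birth, whose share of 8.38 to 11.3% in E18.5 libraries compares with 32.2 to 35.3% in 2-wk and 36.3 to 37.7% in 7-wk libraries. Scaling by the total count moved the median log2 change of all genes by -0.93 at 2 wks and by -1.28 at 7 wks against E18.5, and by -0.35 between 2 and 7 wks. Changes of a gene are read against those shifts.

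*Myog* (ENSMUSG00000026459) lies on chr1:134290004-134292548, plus strand, in the RefSeq annotation of GRCm38.p6, and *Myod1* (ENSMUSG00000009471) on chr7:46376474-46379092, plus strand. *Myf5* (ENSMUSG00000000435), chr10:107482908-107486927, and *Myf6* (ENSMUSG00000035923), chr10:107492848-107494723, are neighbours on the minus strand, 5920 bp apart. *Mymk* (ENSMUSG00000009214) spans chr2:27061636-27072161 and *Mymx* (ENSMUSG00000079471) chr17:45600961-45602196, both on the minus strand. Promoters of *Myog* and *Myf5*, the 2 members that the promoter source held, are printed as RefSeq windows of GRCm38.p6. Each window runs from 250 bases before to 50 bases after an annotated start. They are shown because the myogenic factors act through E-boxes (letters CANNTG, the same on both strands). Capitals mark E-boxes. The *Myog* window is chr1:134289754-134290053, plus strand, and the *Myf5* window chr10:107486085-107486384, minus strand, which starts inside the RefSeq span of the gene.
Myog: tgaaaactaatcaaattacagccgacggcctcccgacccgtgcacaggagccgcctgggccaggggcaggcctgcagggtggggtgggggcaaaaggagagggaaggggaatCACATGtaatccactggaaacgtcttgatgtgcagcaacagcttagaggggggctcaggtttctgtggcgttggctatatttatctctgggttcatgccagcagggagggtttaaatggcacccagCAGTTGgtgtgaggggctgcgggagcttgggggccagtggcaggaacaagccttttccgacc
Myf5: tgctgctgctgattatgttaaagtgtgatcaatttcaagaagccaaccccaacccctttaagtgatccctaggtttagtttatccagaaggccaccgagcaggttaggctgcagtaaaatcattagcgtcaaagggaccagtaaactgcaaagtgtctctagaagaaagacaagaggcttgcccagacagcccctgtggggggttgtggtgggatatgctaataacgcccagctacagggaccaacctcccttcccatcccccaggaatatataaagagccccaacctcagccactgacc

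The *Myog* window held 2 E-boxes, CACATG starting 138 bases and CAGTTG starting 12 bases before the annotated start. No E-box was found in the *Myf5* window. Of 32817 promoter windows of this length, 72.3% held at least 1 E-box and 39.7% at least 2, so an E-box in such a window is common. The full MEF2 consensus, searched on both strands, was in neither window and in 3.19% of all windows. It was taken as YTAWWWWTAR, with Y for C or T, W for A or T and R for A or G. A near match, such as ctatatttat in the *Myog* window, was not counted. A match describes letters only, and its absence says only that these letters are not in this window.

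Of the determination factors, *Myf5* had 4 high libraries at E18.5 and low ones afterwards. Its CPM was 13.3, 12.5, 8.01 and 9.17 in replicates 1 to 4 at E18.5, 3.59, 4.10, 2.14 and 2.37 at 2 wks, and 1.53, 2.14, 1.39 and 2.61 at 7 wks. Every E18.5 library was above every postnatal library, while the 2-wk and 7-wk libraries overlapped. The means at the 3 ages were 10.7 ± 2.54, 3.05 ± 0.949 and 1.92 ± 0.564 (SD, n = 4). *Myf5* fell 3.52-fold to 2 wks (log2 change -1.81, SE 0.27, edgeR adjusted p = 6.48e-05) and was 5.59-fold below E18.5 at 7 wks (log2 change -2.48, adjusted p = 3.27e-06, edgeR). Between 2 and 7 wks its log2 difference was -0.67 (SE 0.27).

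*Myod1*, which shares the determination role, showed no such fall. CPM values at E18.5 were 13.9, 27.9, 17.5 and 13.0, those at 2 wks 28.2, 29.3, 25.3 and 20.6, and those at 7 wks 18.2, 22.3, 27.6 and 12.6. All 3 ages overlapped, and the E18.5 library of replicate 2 stood apart from the other E18.5 libraries. The mean moved from 18.1 ± 6.81 to 25.9 ± 3.87 and then to 20.2 ± 6.36. Against E18.5 the log2 difference was 0.52 at 2 wks (95% interval -0.05 to 1.08, edgeR adjusted p = 0.0971) and 0.16 at 7 wks (-0.40 to 0.72, adjusted p = 0.599, edgeR), and neither passed the threshold. The direction was set by the processing. At 2 wks the difference was -0.75 (adjusted p = 0.013, edgeR) once the dependence of log2 CPM on exon GC content was removed from each library (GC trend), -0.40 under total count scaling, and 0.81 (adjusted p = 0.00892, edgeR) without replicate 2 of E18.5. At 7 wks it was -0.77 (adjusted p = 0.0097, edgeR) with the GC trend removed and -1.13 (adjusted p = 0.00162, edgeR) under total count scaling.

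*Myog*, the differentiation factor, had the highest level per kb of the 4 factors at E18.5 and reached 2 wks with a wide spread. Its CPM was 71.6, 119.2, 80.4 and 63.3 at E18.5, 91.5, 68.6, 38.0 and 35.3 at 2 wks, and 6.08, 8.17, 8.15 and 6.65 at 7 wks. At 2 wks, replicates 1 and 2 lay within the E18.5 range and replicates 3 and 4 lay below it, while the 7-wk libraries sat together below all others. Means were 83.7 ± 24.7, 58.4 ± 26.8 and 7.26 ± 1.06. From E18.5 to 2 wks the log2 difference was -0.52 (SE 0.28, 95% interval -1.13 to 0.09), which did not pass the threshold (edgeR adjusted p = 0.122), and the 2-wk libraries in it are among those behind the choice of the genes. It was -0.79 without replicate 1 of 2 wks (adjusted p = 0.0207, edgeR), -1.23 with the GC trend removed (adjusted p = 0.00145, edgeR) and -1.41 under total count scaling (adjusted p = 0.000974, edgeR). From 2 to 7 wks, the difference that the choice rests on, *Myog* was 8.03-fold lower (log2 -3.01, SE 0.31), and 7 wks lay 11.5-fold below E18.5.

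*Myf6* followed the opposite course on the TMM scale. CPM was 43.7, 59.0, 38.6 and 34.1 at E18.5, 105.7, 108.9, 73.8 and 62.2 at 2 wks, and 82.9, 84.6, 107.1 and 91.3 at 7 wks. The 4 E18.5 libraries were below all 8 postnatal libraries, and the postnatal ages overlapped. Means were 43.9 ± 10.9, 87.6 ± 23.2 and 91.5 ± 11. *Myf6* rose 2.00-fold to 2 wks (log2 1.0, SE 0.21, edgeR adjusted p = 0.000867) and was 2.08-fold above E18.5 at 7 wks (log2 1.06, adjusted p = 0.00044, edgeR), but under total count scaling the log2 differences were 0.09 (adjusted p = 0.721, edgeR) and -0.22 (adjusted p = 0.383, edgeR). As a share of all reads, *Myf6* had mean CPM of 73.0, 77.9 and 62.7 at the 3 ages. The difference between 2 and 7 wks was 0.06 (SE 0.21) with TMM and -0.31 with the total count.

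**Figure D1:**
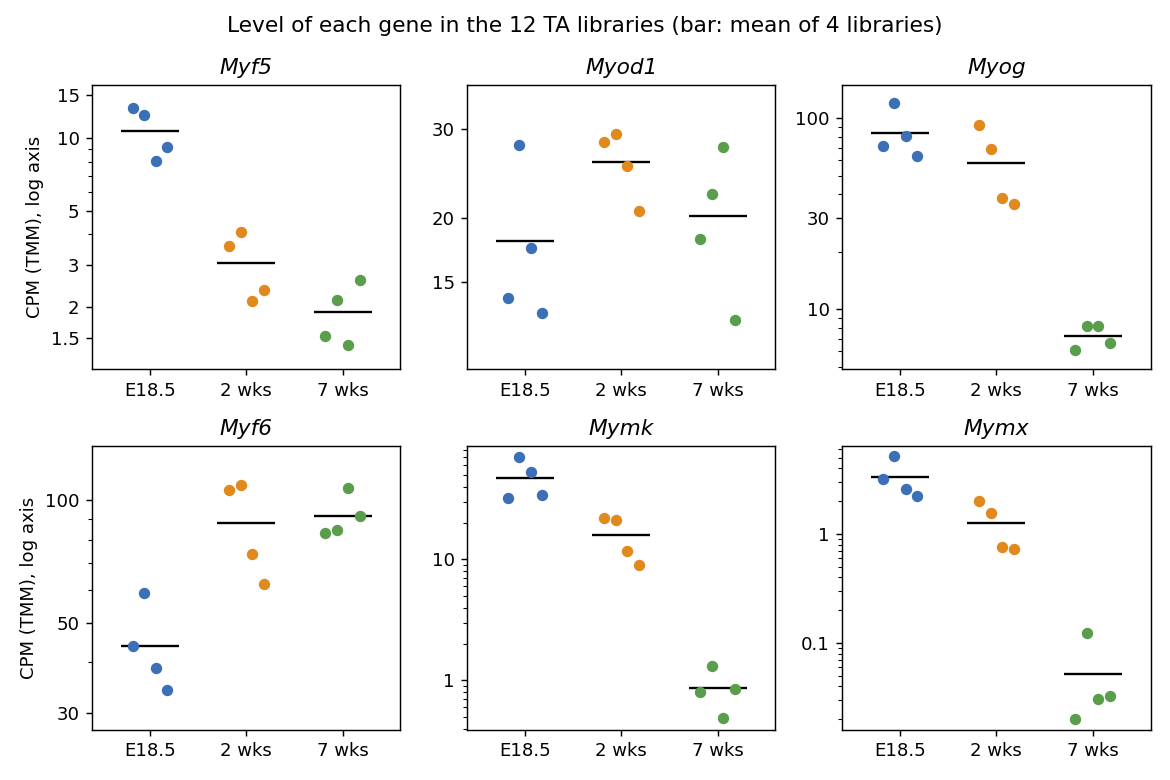
CPM after TMM scaling (log axis, a range of its own in each panel) of the 6 genes in the 4 libraries of each age, with points for libraries in replicate order and a bar for the mean. *Myf5*, *Mymk* and *Mymx* were highest at E18.5 in every library, *Myog* was lowest at 7 wks, *Myod1* overlapped across ages, and *Myf6* was lowest at E18.5 on this scale but not under total count scaling.

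*Mymk*, the membrane protein needed on both fusing cells, fell at each step. CPM was 31.9, 69.6, 52.7 and 33.8 at E18.5, 22.1, 21.3, 11.7 and 8.91 at 2 wks, and 0.802, 1.32, 0.490 and 0.858 at 7 wks. No library of one age reached the range of another. Means were 47.0 ± 17.8, 16 ± 6.70 and 0.868 ± 0.342, from 34203, 4924 and 209 reads over the 4 libraries of each age. *Mymk* fell 2.94-fold to 2 wks (log2 -1.55, SE 0.34, edgeR adjusted p = 0.00128) and 54.1-fold to 7 wks (log2 -5.76, SE 0.42, adjusted p = 6.47e-08, edgeR), and the difference between 2 and 7 wks was 18.4-fold (log2 -4.20, SE 0.40). On the opposite strand *Mymk* overlaps *Adamtsl2*, and the sources used here do not say whether reads were counted by strand. *Adamtsl2* had a mean CPM of 3.74 ± 1.41, 17.5 ± 7.65 and 7.75 ± 2.47 at the 3 ages, so it did not share the course of *Mymk*, and at 7 wks it was the higher of the pair.

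*Mymx*, the micropeptide that completes fusion, had far fewer reads and the same order of ages. CPM was 3.22, 5.18, 2.62 and 2.24 at E18.5, 2.03, 1.55, 0.767 and 0.732 at 2 wks, and 0.0201, 0.124, 0.0306 and 0.0330 at 7 wks. Counts at 7 wks were 1, 8, 2 and 2 reads, against 449 to 894 reads at E18.5. The 13 reads of the 7-wk libraries have an exact Poisson 95% interval of 6.92 to 22.2, which covers counting error only. *Mymx* fell 2.62-fold to 2 wks (log2 -1.39, SE 0.41, edgeR adjusted p = 0.0084) and 60.5-fold to 7 wks (log2 -5.92, SE 0.56, adjusted p = 5.98e-07, edgeR), and its log2 change to 7 wks was -6.80 (adjusted p = 1.16e-06, edgeR) without replicate 2 of 7 wks. Its log2 difference between 2 and 7 wks was -4.53 (SE 0.56), and -5.42 without that library, which held 8 of the 13 reads. *Mymx* and *Myog* overlap the lncRNA genes *Gm56882* and *Gm32221*, on the opposite strand in the GENCODE annotation, which have no row of their own in the count table.

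From E18.5 to 2 wks, 4 of the 6 genes passed the threshold, with *Myf6* higher and *Myf5*, *Mymk* and *Mymx* lower. Of all 19276 genes tested, 65.7% passed, 31.5% higher and 34.2% lower, so a share of this size is near the background. From E18.5 to 7 wks, 4 of the 5 genes other than *Myog* passed, against a background of 71.4%, with 34.3% higher and 37.1% lower. Between 2 and 7 wks 27.5% of all genes passed, 13.5% higher and 13.9% lower, and no such count is read for the 6 genes, since their choice used that interval. Total count scaling changed the split at 2 wks from 6074 higher and 6594 lower genes to 2550 and 11923, at 7 wks against E18.5 from 6610 and 7145 to 2291 and 13297, and between 2 and 7 wks from 2609 and 2687 to 948 and 5392.

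**Figure D2:**
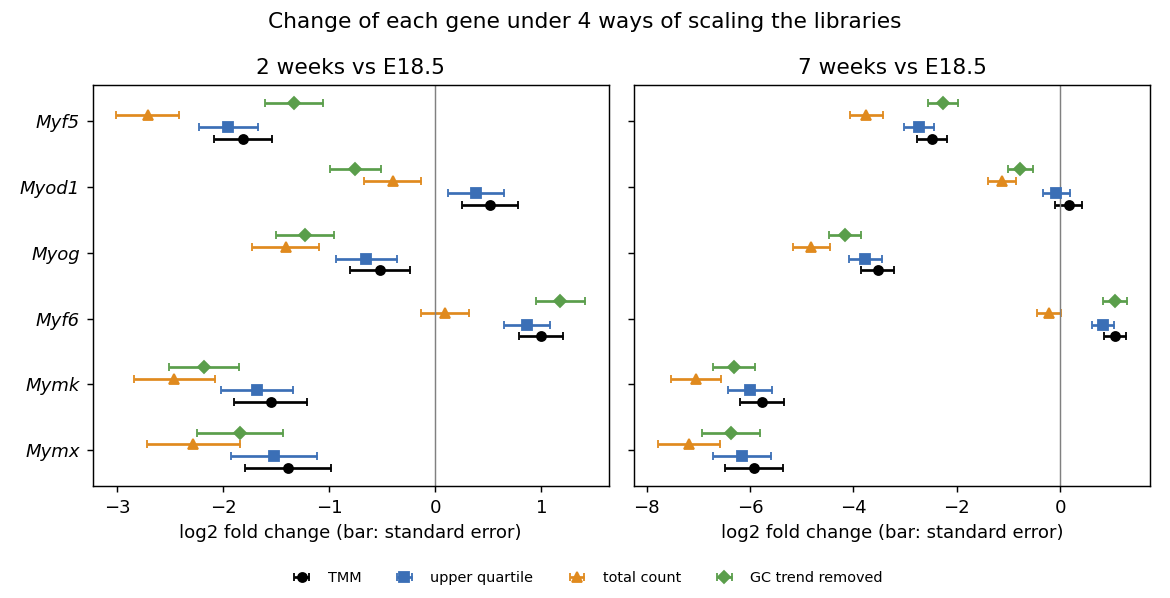
Log2 fold change (points) with its standard error (bars) for the 6 genes at 2 wks and at 7 wks against E18.5, with TMM, upper-quartile and total count scaling and with the GC trend removed. *Myf5*, *Mymk* and *Mymx* were below 0 in all 8 cases and *Myog* too, whereas *Myod1* lay on both sides of 0 and *Myf6* moved to 0.09 and -0.22 under total count scaling.

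A ratio of 2 genes within a library does not depend on how libraries are scaled. Per kb of annotated exon, the *Myf6*/*Myog* ratio was 0.655, 0.530, 0.514 and 0.577 at E18.5, 1.24, 1.70, 2.08 and 1.89 at 2 wks, and 14.6, 11.1, 14.1 and 14.7 at 7 wks. *Myog* was therefore the more abundant in all 4 E18.5 libraries and *Myf6* in all 8 postnatal ones. The ratio rose 2.99-fold from E18.5 to 2 wks, higher in 16 of 16 pairs of libraries. A 2-sided exact permutation test gave p = 0.0286, the smallest that 4 against 4 allow, and 0.0429 after adjustment over 6 tests. This test takes in the 2-wk *Myog* values behind the choice of the genes, and the adjustment takes in the 7-wk test of the same ratio. No conclusion is therefore drawn from these p-values. At 7 wks it was 23.9-fold above E18.5, a value that includes the fall of *Myog* used in the choice.

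The *Myod1*/*Myf5* ratio was 1.16, 2.46, 2.40 and 1.56 at E18.5, 8.64, 7.85, 13.0 and 9.57 at 2 wks, and 13.0, 11.4, 21.7 and 5.32 at 7 wks. Postnatal libraries were all above the E18.5 ones. The rise was 5.30-fold at 2 wks and 6.34-fold at 7 wks, each with an exact permutation p = 0.0286 (adjusted 0.0429). The adjustment ran over 6 tests and took in those of *Myf6*/*Myog*, which hold *Myog* values behind the choice of the genes. The adjusted value therefore depends in part on them and was not computed without them, so no pass of the threshold is read from it. *Myod1* exons have 59.1% GC and those of *Myf5* 41.6%. With the GC trend removed the log2 differences shrank from 2.41 to 0.59 (exact p = 0.0571) and from 2.66 to 1.46 (exact p = 0.0857). Neither exact p was then under 0.05. Without replicate 1 of E18.5 the 7-wk difference was 2.45 (exact p = 0.0571).

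The ratio of the fusion genes to each other did not change past the threshold while each gene fell. *Mymx*/*Mymk* was 0.0909, 0.0670, 0.0448 and 0.0597 at E18.5, 0.0828, 0.0655, 0.0595 and 0.0745 at 2 wks, and 0.0333, 0.0895, 0.0692 and 0.0429 at 7 wks. The 3 ages overlapped. The level of this ratio, though not its change with age, rests on an exon length of *Mymx* (1743 bp) that is longer than its RefSeq span. The log2 difference was 0.14 at 2 wks (exact permutation p = 0.6) and -0.22 at 7 wks (exact permutation p = 0.571), neither past the threshold, and the 7-wk value turned to 1.03 (exact p = 0.0286) when 5 counts in place of 0.5 were added to each gene, since only 13 *Mymx* reads stood behind it.

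**Figure D3:**
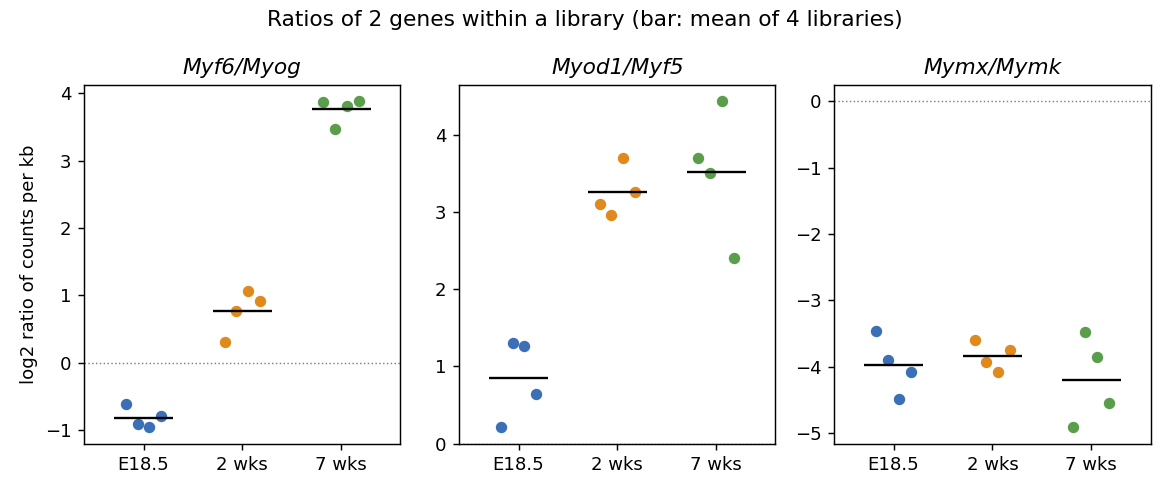
Log2 ratio of counts per kb for 3 pairs of genes within each library (points) with the mean of 4 libraries (bars), and a dotted line at an equal level. The *Myf6*/*Myog* points crossed that line between E18.5 and 2 wks, from a mean of -0.82 to 0.76 and then 3.76, the *Myod1*/*Myf5* points rose from 0.85 to 3.26 and 3.52 (less with the GC trend removed), and the *Mymx*/*Mymk* points overlapped at all ages.

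As shares of the summed level per kb of the 4 regulatory factors, *Myog* made up 54.5 ± 2.34% before birth, then 32.2 ± 5.45% (2 wks) and 5.92 ± 0.665% (7 wks). *Myf6* went from 30.9 ± 2.02% through 54.2 ± 3.38% to 79.9 ± 3.11%. *Myod1* held 9.31 ± 1.07%, 12.3 ± 2.23% and 13.0 ± 3.04%, and *Myf5* 5.25 ± 1.33%, 1.27 ± 0.17% and 1.16 ± 0.403% (SD, n = 4 at each age). The pool of factor RNA thus had *Myog* as its largest part at E18.5 and *Myf6* as its largest part after birth.

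**Figure D4:**
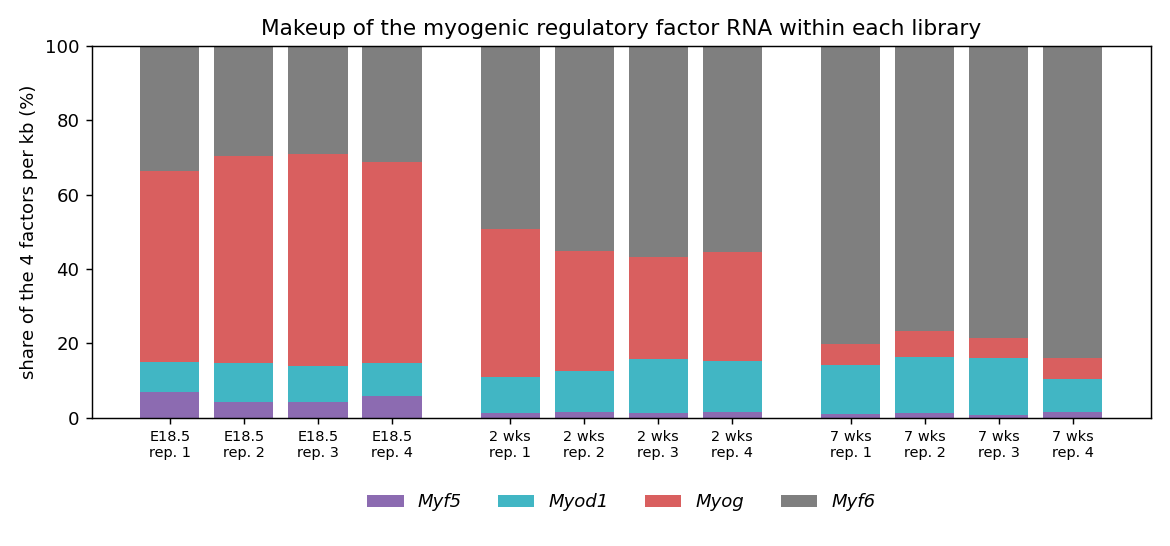
Share (%) of each of the 4 myogenic regulatory factors in their summed counts per kb of exon, for each library (bars). *Myog* ran from 51.4 to 56.8% at E18.5 and from 5.50 to 6.91% at 7 wks, and *Myf6* from 29.2 to 33.7% and from 76.7 to 84.0%.

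Ordered by TMM CPM per kb at E18.5, the levels were *Myog* 55.2 ± 16.3, *Myf6* 31.0 ± 7.67, *Mymk* 30.0 ± 11.3, *Myod1* 9.55 ± 3.60, *Myf5* 5.15 ± 1.22 and *Mymx* 1.90 ± 0.750. Only *Myf6* and *Mymk* overlapped among these neighbours. At 2 wks the order was *Myf6* 61.9, *Myog* 38.5, *Myod1* 13.7, *Mymk* 10.2, *Myf5* 1.46 and *Mymx* 0.728 CPM per kb, where the ranges of *Myf6* and *Myog*, of *Myod1* and *Mymk*, and of *Myf5* and *Mymx* overlapped although the first of each pair was the higher in all 4 libraries. At 7 wks it was *Myf6* 64.6, *Myod1* 10.7, *Myog* 4.79, *Myf5* 0.920, *Mymk* 0.553 and *Mymx* 0.0298 CPM per kb, with only *Myf5* and *Mymk* overlapping. *Mymk* had dropped from level with *Myf6* to below *Myf5*. The exon length used for *Mymx*, 1743 bp in GENCODE, is longer than its RefSeq span given above, so its level per kb depends on the annotation.

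The 2-wk libraries were not alike for these genes. Mean CPM of replicates 1 and 2 against replicates 3 and 4 was 80.1 and 36.6 for *Myog*, 21.7 and 10.3 for *Mymk*, 1.79 and 0.749 for *Mymx*, 3.85 and 2.25 for *Myf5* and 107.3 and 68.0 for *Myf6*. *Myod1* differed least, at 28.7 and 23.0. At E18.5, replicate 2 had the highest level of every member except *Myf5*. The replicate numbers mark nothing that the labels describe. Of 13 lists of cell type markers, 9 also had replicates 1 and 2 apart from replicates 3 and 4 in summed CPM. In replicates 1 and 2, 6 of them were higher and 3 lower. The share of all genes set apart in this way was not computed, so nothing is read from that count. Red blood cell markers summed to 386.7 and 590.8 against 115.6 and 119.0 CPM, satellite cell markers to 433.9 and 424.0 against 400.1 and 319.3, and nerve and Schwann cell markers to 436.3 and 154.2 against 131.9 and 80.8. Tendon markers were lower in the first pair, at 7.57 and 9.17 against 37.5 and 32.5 CPM, as were muscle fibre markers, at 97080 and 98060 against 113300 and 121100. The part of these differences in the members' spread was not tested.

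The 3 genes of most like time course were found for each member, by the smallest root mean square difference of centred log2 CPM over the 12 libraries among 13087 genes. For *Myog* they were *Dbn1* (0.337), which encodes an actin-binding protein, the imprinted lncRNA *H19* (0.341) and *Rgs16* (0.345). *H19* had mean CPM of 7980, 6240 and 1140 at the 3 ages. For *Myf6* they were *Ubb-ps* (0.197), a pseudogene whose reads may come from its parent, *Zdhhc14* (0.205) and *Ccdc86* (0.213). *Myf5* was nearest to *Myzap* (0.237), *Ror1* (0.260) and *Cdh6* (0.262), and *Myod1* to *Klk8* (0.205), *Hs3st1* (0.208) and *Raly* (0.236).

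*Mymk* had no neighbour as near as those, with *Marcksl1* at 0.541, *Arhgef39* at 0.562 and the mitotic kinase gene *Aurkb* at 0.593. *Mymx* was followed by *Marcksl1* (0.640), *Arhgef39* (0.664) and *Cthrc1* (0.700). *Mymk* and *Mymx* were nearer to each other, at 0.372, than to any of these genes. The candidates needed a mean log2 CPM of at least 0, a bound not set for the members, so genes as low as *Mymx* may be missing among them. Among the other members the nearest pair was *Myod1* and *Myf6* at 0.461, and *Myf6* was the farthest from *Mymk* and *Mymx*, at 2.84 from each.

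E proteins are the partners with which the myogenic factors bind DNA. *Tcf12*, with a CPM of 150.0 ± 32.4 at E18.5 and 45.3 ± 4.35 at 2 wks, fell (log2 -1.73, SE 0.21, edgeR adjusted p = 9.9e-06). *Tcf3* rose from 10.2 ± 5.75 to 23.2 ± 1.68 CPM (log2 1.19, adjusted p = 0.00495, edgeR) and stood at 10.1 ± 2.99 at 7 wks, but its 2-wk difference was -0.02 with the GC trend removed. *Tcf4* had 123.7, 95 and 75.5 CPM, and its 2-wk difference of -0.38 did not pass (adjusted p = 0.137, edgeR).

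Inhibitors of the myogenic factors, such as the Id proteins, which take E proteins away, moved both ways by 2 wks. Of 15, 4 rose and 7 fell with TMM, which is 73.3% of the list against 65.7% of all genes, with a list median of -0.43 against -0.09. Under total count scaling 2 rose and 9 fell, where 13.2% of all genes rose and 61.9% fell. *Bhlhe41*, a transcriptional repressor, rose from 4.21 to 33.6 CPM (log2 3.00) and *Id3* from 5.29 to 22.7 CPM (log2 2.10). *Twist1*, a repressor of myogenic differentiation, fell from 5.21 to 0.971 CPM (log2 -2.42) and *Msc* from 14.7 to 4.37 CPM (log2 -1.75). Between 2 and 7 wks, 1 was past the threshold upward and 6 downward, which is 46.7% of the list against 27.5% of all genes. *Bhlhe41* at 0.80 and *Mdfi* at -2.20 were the outermost.

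Upstream regulators of the myogenic factors counted 17, of which 7 rose and 3 fell by 2 wks with TMM, and 4 and 9 under total count scaling. With TMM that is 58.8%, under the 65.7% of all genes. *Tbx1*, from 1.98 to 28.4 CPM (log2 3.84), and the homeobox gene *Lbx1*, from 2.5 to 19.3 CPM (log2 2.95), rose most. *Gli2*, an effector of hedgehog signalling, fell from 11.2 to 3.79 CPM (log2 -1.56) and *Meox2* from 45.0 to 30.0 CPM (log2 -0.58). With the GC trend removed *Meox2* was at -0.35 and did not pass (edgeR adjusted p = 0.0959). *Pax7*, the satellite cell factor upstream of *Myf5*, had 12.1 ± 3.58, 8.26 ± 0.936 and 4.79 ± 1.08 CPM (log2 -0.55 at 2 wks, adjusted p = 0.0364, edgeR). From 2 to 7 wks, 2 were past the threshold upward and 3 downward, *Eya1* at 1.03 and *Gli2* at -1.46 being the outermost. That is 29.4% of the list, near the 27.5% of all genes.

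Among 12 co-activators, 7 rose and none fell by 2 wks with TMM, against 6 and 2 with the GC trend removed and 2 and 5 under total count scaling. The 7 are 58.3% of the list, where 65.7% of all genes passed and 31.5% rose. The rises were led by *Mef2b* (log2 2.65), at no more than 0.448 CPM in the mean of any age. Next was *Smarcd3* (log2 1.54), a chromatin remodelling subunit that works with the myogenic factors, from 38.3 to 111.7 CPM. With the GC trend removed *Mef2b* was at 1.36, but *Smarcd3* was at 0.12 and did not pass (edgeR adjusted p = 0.5). From E18.5 to 7 wks all 12 passed upward with TMM, where 34.3% of genes did, and 4 rose and 4 fell under total count scaling. Between 2 and 7 wks 8 were past the threshold upward, which is 66.7% of the list, where 13.5% of all genes were. *Mef2c*, at 1.23, had the largest rise. Under total count scaling 3 were past it upward, where 4.92% of all genes were.

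Other genes of the fusion machinery counted 35 adhesion, cytoskeleton and membrane genes. By 2 wks 22 fell and 5 rose with TMM, with a list median of -0.65 against -0.09 over all genes, of which 34.2% fell and 31.5% rose. Under total count scaling 29 fell and 1 rose, where 61.9% of all genes fell. *Adgrb3*, a receptor that promotes myoblast fusion, fell from 2.54 to 0.182 CPM (log2 -3.80), and *Nphs1*, never above a mean of 0.110 CPM, had a log2 change of -3.30. *Itga3* (log2 2.29) and *Itga7*, the laminin-binding integrin of fibres (log2 1.33, from 65.2 to 164.1 CPM), rose. From 2 to 7 wks 12 were past the threshold downward and 4 upward, which is 45.7% of the list against 27.5% of all genes. The outermost were *Adgrb1* at -2.17, on a mean of 0.171 CPM or less, and *Jam2* at 0.86.

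Genes tied to innervation and activity, a setting in which *Myog* is known to be held down in innervated fibres, split evenly by 2 wks. Of 15, 7 rose and 7 fell with TMM, which is 93.3% of the list against 65.7% of all genes, and 4 rose and 8 fell under total count scaling. The embryonic acetylcholine receptor subunit gene *Chrng* fell from 39.7 to 1.76 CPM (log2 -4.50) and *Chrnd* from 54.9 to 9.14 CPM (log2 -2.59). The ubiquitin ligase genes *Trim63* (log2 2.58) and *Fbxo32* (log2 2.36) rose. From 2 to 7 wks 4 were past the threshold upward and 6 downward, which is 66.7% of the list against 27.5% of all genes. *Dach2*, a repressor of *Myog*, had the largest rise, from 1.19 ± 0.525 to 6.92 ± 2.86 CPM (log2 2.54), and *Chrng*, at -1.63, the largest fall.

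Of 23 differentiation targets, 12 rose and 8 fell by 2 wks with TMM, which is 87.0% of the list against 65.7% of all genes, and 9 rose and 9 fell under total count scaling. *Ckm*, muscle creatine kinase (log2 3.86), and *Acta1*, skeletal actin (log2 3.76, from 3636 to 49280 CPM), rose most. The perinatal and embryonic myosin genes *Myh8* (log2 -7.57, from 5840 to 30.7 CPM) and *Myh3* (log2 -7.12) fell most. From 2 to 7 wks 2 were past the threshold upward and 8 downward, with *Lmod2* at 1.21 and *Mybph* at -3.63. That is 43.5% of the list against 27.5% of all genes.

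**Figure D5:**
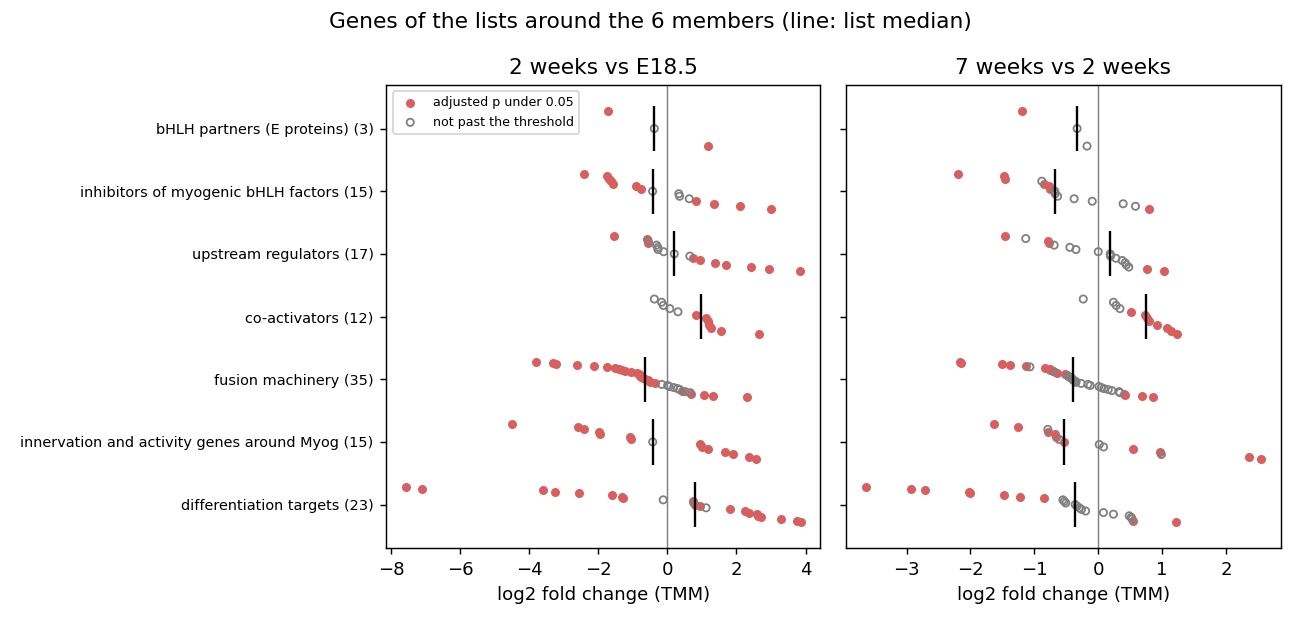
Log2 fold change with TMM of the genes in 7 lists around the members (points, 1 a gene, filled where the adjusted p was under 0.05) with the list median (line), at 2 wks against E18.5 and at 7 wks against 2 wks. The fusion machinery had 22 lower and 5 higher genes at 2 wks, and the 7 co-activators past the threshold were all higher with TMM, while total count scaling left 2 higher and 5 lower.

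In whole muscle, fewer cells of a type and less RNA per cell cannot be told apart. All 7 muscle fibre markers rose to 2 wks with TMM, where 31.5% of all genes did. Their summed level ran from 10750 to 19070 CPM in E18.5 libraries, from 97080 to 121100 in 2-wk and from 99330 to 120400 in 7-wk libraries. The 7 proliferation markers all fell to 2 wks, where 34.2% of all genes did. From 2 to 7 wks all 7 fell again, against 13.9% of all genes. Their summed level at the 3 ages was 494.6 to 745.7, 110.5 to 210.2 and 21.3 to 33.6 CPM. That is the order of ages shown by *Mymk* and *Mymx*, but it was not particular to proliferation. The summed markers of macrophages and of cartilage and bone had the same order with no overlap between ages. Of 10 satellite cell markers, 4 rose and 3 fell to 2 wks with TMM, which is 70% of the list, near the 65.7% of all genes. The 4 that rose, *Heyl*, *Chrdl2*, *Sdc4* and *Spry1*, were at -0.488, -0.0175, -0.484 and -0.425 under total count scaling. With the GC trend removed none of these 4 passed. The 3 that fell kept their direction under every scaling. At 7 against 2 wks 5 were past the threshold downward and none upward, where 13.9% of all genes were past it downward. Their sums at the 3 ages were 361.6 to 455.4, 319.3 to 433.9 and 181.2 to 242.6 CPM. The part of these changes in the members' values was not tested.

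Markers of tissue around the muscle also differed by age. At E18.5, 4 adipocyte markers summed to 10.3 to 364.7 CPM and 4 of cartilage and bone to 12.4 to 115.0, against at most 7.04 and 9.07 CPM after birth. Fibroblast markers, 6 in number, had 4630 to 8851 CPM at E18.5 and 819 to 2868 at 7 wks, 4 macrophage markers 147.4 to 181.8 and 14.8 to 52.9, and 3 tendon markers 49.7 to 171.8 and 6.76 to 35.3. Endothelial markers ran from 340.6 to 886.6 CPM over all libraries, red blood cell markers from 72.6 to 608.7, epidermal markers from 1.51 to 26.7 and heart markers from 4.31 to 23.5. Their part in the members' values was not tested either.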

How the data were processed

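The authors deposited a table of raw read counts per Ensembl gene for 12 libraries (TruSeq Stranded mRNA kit, polyA selection, paired-end reads). The submitters' processing notes name bcl2fastq 2.17.1.14, cutadapt 1.10, STAR 2.5.3a, HTSeq 0.6.1p1 and mm10, while the methods of the study name GRCm39. The strand setting of the counting is not given in the sources used here. Coordinates are those of RefSeq on GRCm38.p6, which is the mm10 assembly. Symbols, exon lengths and GC content came from GENCODE vM39, which held 51477 of the 55450 genes, and the other 3973 took 0.0394% of the counts. No per-sample column was left unused (0).

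Counts were fitted with edgeR 4.0.16 (R 4.3.3, quasi-likelihood test, TMM, filterByExpr, all 12 libraries in a single fit with a term for each age), which left 19276 genes, and p-values were adjusted by Benjamini-Hochberg over all of them with a threshold of 0.05. This differs from the study's Cuffdiff, which takes reads. Ratios used counts plus 0.5 and a 2-sided exact permutation test over 70 regroupings. Log2 CPM for likeness had a prior count of 2, and genes needed a mean log2 CPM of at least 0. Alternatives were total count and upper-quartile scaling, DESeq2 1.42.0, other filters on low counts (either none or a minimum of 10 in each library), TMM without the 20 most abundant and 37 mitochondrially encoded genes, only the ages compared, removal of each library's lowess trend over GC content, a block on replicate number, and each library left out. The scripts were tested on simulated data. Figures were drawn with matplotlib 3.10.9.

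The members and the lists were chosen with earlier results of these data known. Genes named from a list were, at 2 wks against E18.5, the 2 largest rises and 2 largest falls past the threshold and, at 7 against 2 wks, the largest of each, besides lists of at most 8 genes, overlapping genes, the 3 genes of most like pattern, and *Pax7*.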

Additional observations from a re-analysis of the deposited data

Results flagged for a closer look

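The *Myf6*/*Myog* ratio per kb of exon at 7 wks was 11.1 in replicate 2, apart from the 14.1 to 14.7 of the other 3 libraries, with a gap of 0.847 of the whole range of the group. It was 1 of 27 sets of 4 libraries in which a library stood that far from the rest, where chance gives 1.35. Replicate 2 was still above all 2-wk libraries, the highest of which was 2.08.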

How the results depend on the processing

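Of the log2 differences of the members and the ratios, those of *Myf5* and *Mymk* against E18.5 kept their direction and their side of the threshold under every alternative that was run. Under total count scaling, *Myod1* at 7 wks against E18.5 was -1.13, *Myog* at 2 wks -1.41, and *Myf6* 0.0927 at 2 wks, -0.22 at 7 wks and -0.31 between them. With the GC trend removed, *Myod1* was -0.75 at 2 wks and -0.77 at 7 wks, *Myog* at 2 wks -1.23, and the *Myod1*/*Myf5* ratio 0.59 and 1.46. Leaving out 1 library at a time gave 0.39 to 0.81 for *Myod1* at 2 wks (0.81 without replicate 2 of E18.5) and -0.02 to 0.45 at 7 wks. For *Myog* at 2 wks it gave -0.79 to -0.30 (-0.79 without replicate 1 of 2 wks). *Myf6* ran from 0.89 to 1.18 and from 0.96 to 1.24 against E18.5, and from -0.07 to 0.18 at 7 against 2 wks. *Mymx* ran from -5.42 to -4.24 at 7 against 2 wks. The *Myod1*/*Myf5* ratio at 7 wks ran from 2.36 to 3.03, and was 2.45 without replicate 1 of E18.5 (exact permutation p = 0.0571). *Mymx*/*Mymk* at 7 wks ran from -0.46 to 0.02. Genes past the threshold between 2 and 7 wks numbered 3472 to 6145 (5296 with all libraries, 3472 without replicate 1 of 2 wks). Adding 5 counts made the *Mymx*/*Mymk* difference 1.03 at 7 wks against E18.5 and 0.83 against 2 wks. Correlations between same-numbered libraries ran from -0.28 to 0.51, positive in all 3 pairs of ages for replicate 4 but not over 0.1 for every number, so the numbers were not taken to pair the libraries. With the replicate block, *Myod1* at 2 wks was 0.57 (edgeR adjusted p = 0.0214). The ratio differences of 1.58 for *Myf6*/*Myog* at 2 wks and of 2.41 and 2.66 for *Myod1*/*Myf5* had an exact sign-flip p of 0.125. It is the smallest p that 4 pairs allow and says nothing of their stability. The 4.58 of *Myf6*/*Myog* at 7 wks includes the fall of *Myog* used in the choice, so no p is given for it. The filter of 10 counts in every library left *Mymx* without a value. Apart from the scalings, the GC trend and the block, the cause of these changes was not tested. Among counts of list genes past the threshold, 427 alternatives were within 1.5 times the main count and 14 were not. Depth limits *Mymx* at 7 wks, with 1 to 8 reads a library.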
